A study of Homo sapiens with 6 samples.

Results

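Histone deacetylases (HDACs), sirtuins and the subunits of the corepressor complexes that carry them were followed in bladder cancer cells treated with the HDAC inhibitor quisinostat. The gene set was a list of 42 symbols that covers the HDAC and sirtuin enzymes and the NuRD, SIN3, CoREST and NCOR complexes, and rows were taken by gene name. Of these, 32 had a row of their own among the 10515 rows of the deposited table, at 32 of its 10066 assembled loci. The other 10 (HDAC4, HDAC5, HDAC6, HDAC10, SIRT3, SIRT5, GATAD2A, ING1, RCOR3 and NCOR1) were not analysed here. RNA came from 3 human bladder cancer lines grown for 2 days with quisinostat or with DMSO as the control. RT4 cells, with an FGFR3-TACC3 fusion, received 50 nM, RT112 cells, also with an FGFR3-TACC3 fusion, received 10 nM, and SW780 cells, with a fusion labelled FGFR3-BAIBP2L1, received 25 nM. Dose and cell line therefore change together, and an effect of dose and one of the line cannot be told apart. There was 1 library for each line and treatment, 6 in all, so a difference within a line has no replicate check.

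Levels are FPKM, in which the fragments of a gene are divided by its transcript length and by the size of the library. Because of the division by length, the levels of different genes may be set side by side. GC content, which also differs between genes, has no stated correction in FPKM, so such comparisons are approximate. Read counts and depth are unknown. The 6 libraries had a median of 6.59 to 7.39 FPKM over all loci. All 15 urothelial and epithelial markers checked (keratins, uroplakins, EPCAM, CDH1, GATA3, PPARG and TP63) had a row, with KRT19 between 181 and 637 FPKM, while UPK3A was listed at 0 in both RT112 libraries and KRT5 was at most 0.04 FPKM in RT4 cells. Of 9 markers of immune, endothelial, fibroblast and muscle cells only COL1A1 had a row, at 0.03 to 0.17 FPKM in DMSO and 0.47 to 1.45 FPKM in quisinostat. In bulk RNA a smaller share of cells that express a gene and less RNA per cell cannot be told apart.

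HDACs remove acetyl groups from histone tails and other proteins. The zinc-dependent enzymes, which hydroxamate inhibitors such as quisinostat occupy, fall into class I (HDAC1, HDAC2, HDAC3 and HDAC8), class II and class IV (HDAC11), while the sirtuins use NAD and are not targets of such drugs. HDAC1 and HDAC2 work inside NuRD, SIN3 and CoREST, HDAC3 works inside NCOR, and the other subunits read chromatin, remodel nucleosomes or bind transcription factors.

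The difference of a gene within a line was expressed as a log2 ratio, its quisinostat FPKM divided by its DMSO FPKM, and a gene was counted as lower or higher where this ratio passed 0.3, the limit the study used for lowered genes. In RT4 cells 10 of the 32 genes were lower, where 33.5% of 9112 loci were, and 9 were higher, where 40.3% of loci were. In RT112 cells 10 were lower and 6 higher, beside 25.2% and 36% of loci. In SW780 cells 12 were lower and 4 higher, beside 28.2% and 32.8% of loci. As shares of the members these are 31.2% and 28.1% in RT4, 31.2% and 18.8% in RT112 and 37.5% and 12.5% in SW780 cells. The median ratio of the members was -0.04, -0.16 and -0.16 in RT4, RT112 and SW780 cells, and that of all loci was 0.08, 0.06 and 0.04. Past a wider limit of 1, which is a 2-fold change, were 8 members in RT4 cells, 2 in RT112 cells and 4 in SW780 cells. Among all loci 14.1% were lower and 18% higher by this limit in RT4 cells, 3.6% and 13.8% in RT112 cells and 7.35% and 10.5% in SW780 cells. Of the 14 epithelial markers above 0 in all 6 libraries, by the 0.3 limit 8 were lower and 4 higher in RT4 cells, 3 and 8 in RT112 cells and 9 and 4 in SW780 cells, and their part in the results was not tested.

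Only CHD3 and RBBP4 were lower in all 3 lines by the 0.3 limit, and 4.99% of loci were. No member was higher in all 3, while 11.4% of loci were. HDAC1, SIRT1, CHD4 and RCOR1 stayed within 0.3 in every line, a pattern of 7.12% of loci, and 7 members were past 0.3 in opposite directions in different lines, where 29.3% of loci were.

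**Figure D1:**
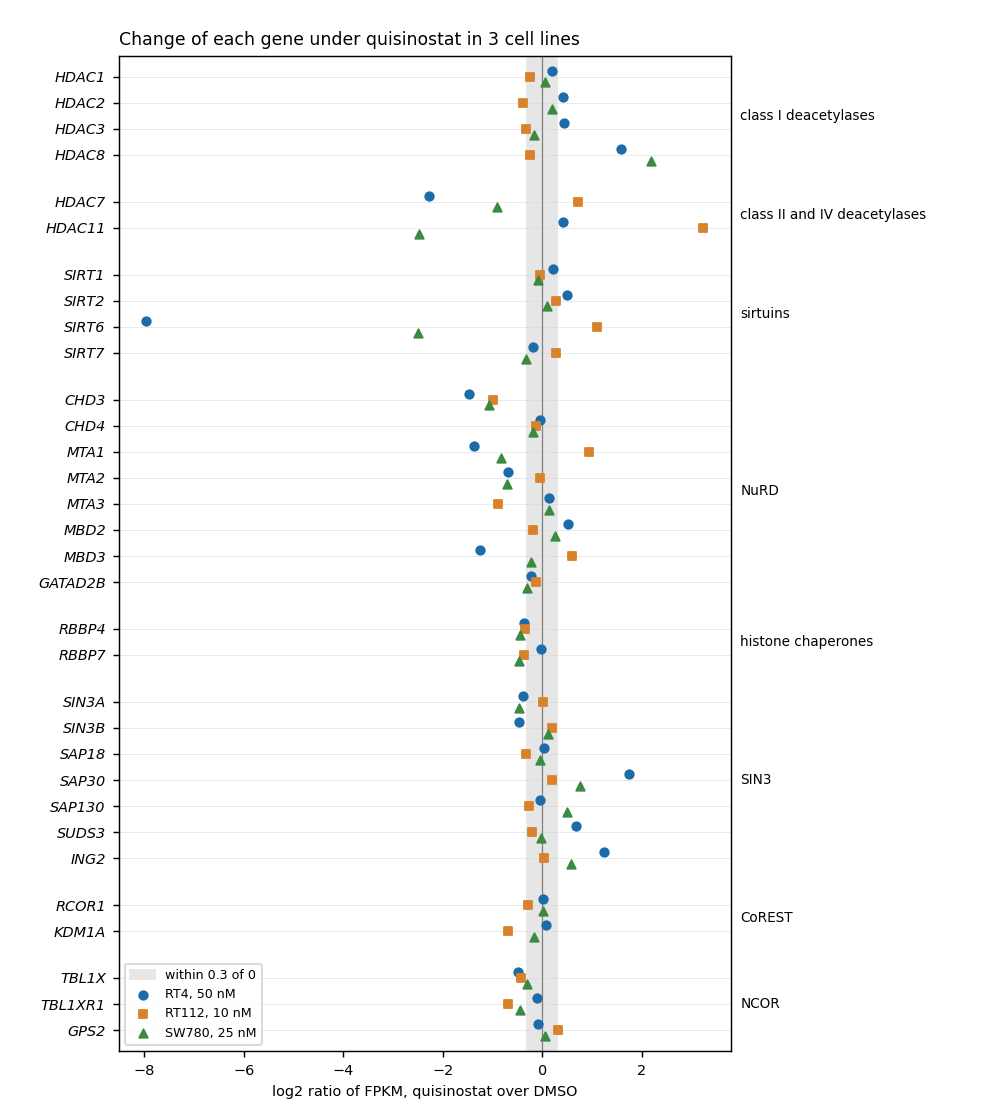
Log2 ratio of FPKM (x axis, quisinostat over DMSO) for the 32 genes, grouped by class or complex, with 1 point for each cell line and no replicates; the grey band marks ratios within 0.3 of 0. CHD3 lies left of the band in all 3 lines, HDAC8 lies right of it in RT4 and SW780 cells, and HDAC11 reaches 3.23 in RT112 and -2.48 in SW780 cells.

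The class I enzymes were dominated by HDAC1 and HDAC3 in every library. HDAC1 had 64.4, 72.7 and 79.2 FPKM in DMSO and 73.2, 60.8 and 82.2 FPKM in quisinostat in RT4, RT112 and SW780 cells. Its log2 ratios of 0.18, -0.26 and 0.05 show no direction shared by the lines. HDAC1 has 2 pseudogenes named after it in GENCODE. How the reads were shared with them is not given in the sources used here. The levels of HDAC1, and the shares and ratios computed from them, carry this limit. HDAC3, the catalytic subunit of the NCOR complex, had 49.6, 46.7 and 54.0 FPKM in DMSO and 66.8, 37.1 and 48.3 FPKM in quisinostat. It was higher in RT4 (0.43) and lower in RT112 cells (-0.33), with -0.16 in SW780 cells. HDAC2, the close paralog of HDAC1, had 7.48, 14.0 and 9.51 FPKM in DMSO and 10.0, 10.7 and 10.9 FPKM in quisinostat. The spread of HDAC2 between the lines was smaller in quisinostat than in DMSO. Its ratios were 0.42, -0.39 and 0.20, and after correction for the GC content of transcripts (described further on) they were -0.11, -0.22 and 0.03, all inside the limit.

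HDAC8, a class I enzyme known for the deacetylation of cohesin and not tied to a corepressor complex, was the lowest of the members in the DMSO libraries on average, with 1.20, 1.39 and 0.61 FPKM for RT4, RT112 and SW780 cells. With quisinostat it stood at 3.57, 1.17 and 2.77 FPKM. RT4 and SW780 cells thus had 2.97 and 4.56 times the DMSO level, and RT112 cells 0.84 times. Only 2.80% of loci had a larger ratio in SW780 cells, and 9.44% did in RT4 cells. After the GC correction the ratios were 1.13, -0.08 and 2.06, and with 1 FPKM added to each value they were 1.05, -0.14 and 1.23. Summed over the 4 class I genes, FPKM went from 123 to 154 in RT4, from 135 to 110 in RT112 and from 143.3 to 144.2 in SW780 cells. HDAC1 made up between 47.6% and 57.0% of these sums, HDAC3 between 33.5% and 43.5%, HDAC2 between 6.10% and 10.4%, and HDAC8 between 0.42% and 2.33%.

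**Figure D2:**
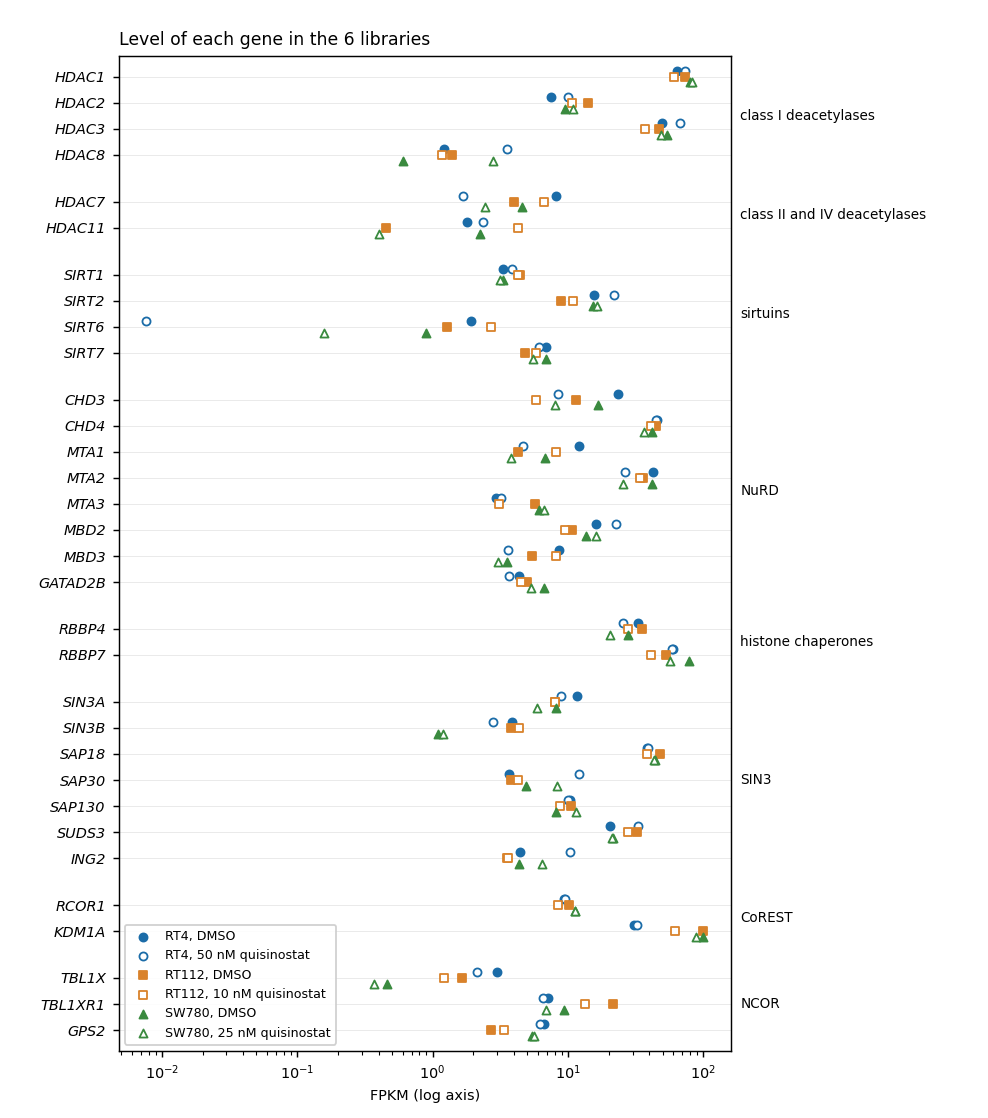
FPKM (x axis, log scale) of the 32 genes in each of the 6 libraries, filled for DMSO and open for quisinostat, with shape and colour for the cell line. KDM1A, HDAC1 and RBBP7 lie furthest right in DMSO, with means of 76.6, 72.1 and 64.0 FPKM, and the open SIRT6 symbols of RT4 and SW780 cells lie furthest left, at 0.0077 and 0.16 FPKM.

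Of the class II and IV enzymes only HDAC7 and HDAC11 were measured. HDAC7, a class IIa enzyme that binds MEF2 factors, had 8.11, 4.03 and 4.60 FPKM in DMSO and 1.68, 6.60 and 2.43 FPKM in quisinostat. It was 4.82 times lower in RT4 and 1.89 times lower in SW780 cells and 1.64 times higher in RT112 cells. The GC-corrected ratios kept the first pair (-1.26 and -0.62) and gave -0.04 for RT112 cells. HDAC11, the class IV enzyme, known as a remover of long fatty acyl groups, had 1.78, 0.46 and 2.25 FPKM in DMSO and 2.36, 4.29 and 0.41 FPKM in quisinostat. Its order among the lines turned over, since RT112 cells had the least in DMSO and the most in quisinostat, and SW780 cells the reverse. The log2 ratio of 3.23 in RT112 cells was exceeded by 1.59% of loci, and the -2.48 in SW780 cells was undercut by 1.06%. Both kept their direction after the GC correction (2.57 and -2.22) and with 1 FPKM added (1.86 and -1.21), while the 0.40 of RT4 cells became 1.29 and 0.27. These low levels carry an unknown counting error.

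Among the sirtuins, SIRT1, a nuclear deacetylase, was steady at 3.30, 4.41 and 3.33 FPKM in DMSO and 3.83, 4.26 and 3.13 FPKM in quisinostat. SIRT2, which deacetylates tubulin in the cytoplasm, was the highest sirtuin and stood at 15.7, 8.92 and 15.3 FPKM in DMSO and 21.98, 10.9 and 16.4 FPKM in quisinostat. All 3 of its ratios were above 0 (0.49, 0.28 and 0.10), and only the first passed 0.3. After the GC correction the RT112 ratio of SIRT2 was -0.21. SIRT6, a chromatin enzyme of telomeres and glucose metabolism, had 1.91, 1.27 and 0.89 FPKM in DMSO and 0.0077, 2.70 and 0.16 FPKM in quisinostat. It was near 0 in the RT4 quisinostat library, and its log2 ratio of -7.96 there becomes -1.53 with 1 FPKM added, so the size of this difference depends on the pseudocount. The ratios in RT112 and SW780 cells were 1.09 and -2.51, or 0.12 and -2.13 after the GC correction. SIRT7, a nucleolar deacetylase whose locus also carries MAFG, ranged from 4.80 to 6.89 FPKM with ratios of -0.18, 0.28 and -0.32. After the GC correction these were 0.54, -0.26 and -0.12, so the direction in RT4 and RT112 cells depended on it.

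NuRD joins HDAC1 and HDAC2 to a nucleosome remodeller, either CHD3 or CHD4, and to MTA and MBD proteins. The remodeller CHD3 had 23.6, 11.5 and 16.7 FPKM in DMSO and 8.49, 5.76 and 7.96 FPKM in quisinostat. Every quisinostat value lay below every DMSO value. The log2 ratios were -1.47, -0.99 and -1.07, so the level was 2.78, 1.99 and 2.10 times lower, and 7.37%, 3.63% and 6.52% of loci had a lower ratio. GC-corrected ratios of CHD3 were -1.10, -1.28 and -0.99. The alternative remodeller CHD4 was higher and flat, with 45.8, 44.4 and 41.7 FPKM in DMSO and 44.5, 40.7 and 36.5 FPKM in quisinostat. Its locus also carries NOP2, and the 2 genes share 1 value. Among the members CHD4 differed least between the lines in DMSO, 1.10 times from lowest to highest.

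The MTA scaffolds, which hold the deacetylases in NuRD, did not move together. MTA2, at a locus shared with EML3, had 42.4, 35.6 and 41.7 FPKM in DMSO and 26.4, 34.3 and 25.5 FPKM in quisinostat, with ratios of -0.68, -0.05 and -0.71. After the GC correction, which took the mean GC content of both genes at that locus, these were 0.06, -0.60 and -0.50, so which lines were lower depended on it. MTA1 had 12.1, 4.27 and 6.74 FPKM in DMSO and 4.65, 8.22 and 3.78 FPKM in quisinostat. It was lower in RT4 (-1.38) and SW780 cells (-0.83) and higher in RT112 cells (0.95), and after the GC correction the values were -0.43, -0.56 and 0.24 in that order. For MTA3 the levels were 2.92, 5.72 and 6.11 FPKM in DMSO and 3.19, 3.09 and 6.71 FPKM in quisinostat, and only RT112 cells differed by more than 0.3 (-0.89, and -0.97 after the GC correction).

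Of the MBD proteins, MBD2, which binds methylated DNA, had 16.0, 10.8 and 13.5 FPKM in DMSO and 22.7, 9.48 and 16.2 FPKM in quisinostat, with ratios of 0.51, -0.18 and 0.26. MBD3, which takes the same place in NuRD and lacks that binding, shares its locus with UQCR11 and had 8.55, 5.41 and 3.57 FPKM in DMSO and 3.61, 8.11 and 3.02 FPKM in quisinostat. Its ratios were -1.25, 0.58 and -0.24, and -0.68, 0.17 and -0.09 after the GC correction. GATAD2B, the NuRD subunit that links MBD proteins to the remodeller, ranged from 3.67 to 6.63 FPKM, with all ratios below 0 (-0.24, -0.13 and -0.31). Over the 8 NuRD genes measured, 4 were lower and 1 higher in RT4 cells, 2 and 2 in RT112 cells and 4 and 0 in SW780 cells, beside 33.5% and 40.3%, 25.2% and 36%, and 28.2% and 32.8% of loci. After the GC correction the counts were 4 and 0, 3 and 0, and 4 and 0. The shares of loci were then 33.4% and 35.6%, 24.7% and 28.1%, and 28.6% and 30.5%.

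RBBP4 and RBBP7 are histone chaperones present in both NuRD and SIN3. RBBP4 had 33.0, 35.3 and 27.9 FPKM in DMSO and 25.6, 27.7 and 20.3 FPKM in quisinostat. The quisinostat values all lay below the lowest DMSO value, with ratios of -0.37, -0.35 and -0.46. Each is only slightly past the 0.3 limit, and the GC-corrected values were -0.78, -0.18 and -0.58. RBBP4 has 6 pseudogenes named after it in GENCODE 29, and how the reads were shared with them is not given in the sources used here. RBBP7 had 59.7, 53.1 and 79.0 FPKM in DMSO and 58.4, 41.2 and 57.2 FPKM in quisinostat, and it was lower in RT112 (-0.37) and SW780 cells (-0.47) but not in RT4 cells (-0.03). The GC-corrected ratios of RBBP7 were -0.32, -0.25 and -0.56, so the RT112 value came inside the limit and the RT4 value went past it.

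In SIN3, the complex that MAD-type factors bring to promoters, the scaffold SIN3A (locus shared with MAN2C1) had 11.7, 7.99 and 8.13 FPKM in DMSO and 8.91, 8.00004 and 5.87 FPKM in quisinostat. SIN3B, the other scaffold, was below SIN3A in every library, with 3.84, 3.801 and 1.10 FPKM in DMSO and 2.78, 4.32 and 1.20 FPKM in quisinostat. Of the 2, SIN3A was past -0.3 in RT4 (-0.40) and SW780 cells (-0.47) and SIN3B in RT4 cells (-0.47), and the RT4 values became -0.18 and 0.34 after the GC correction. The small subunits SAP30, which bridges SIN3 and HDAC1, and ING2, which binds trimethylated lysine 4 of histone H3 and so ties SIN3 to active promoters, were higher in the same lines. SAP30 had 3.64, 3.76 and 4.91 FPKM in DMSO and 12.1, 4.30 and 8.28 FPKM in quisinostat. RT4 cells thus had 3.34 times the DMSO level, SW780 cells 1.69 times and RT112 cells 1.14 times. ING2 had 4.45, 3.57 and 4.33 FPKM in DMSO and 10.4, 3.63 and 6.46 FPKM in quisinostat, or 2.35, 1.016 and 1.49 times the DMSO level. For both genes the 3 DMSO values were close together and the quisinostat values of RT4 and SW780 cells lay above all of them. Their GC-corrected ratios were 1.79, 0.13 and 0.74 for SAP30 and 1.08, 0.05 and 0.50 for ING2.

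SUDS3, SAP130 and SAP18, further SIN3 subunits, were each past the limit in 1 line. SUDS3, which stimulates the deacetylase, was higher in RT4 cells (20.6 to 32.8 FPKM, ratio 0.67) and had ratios of -0.20 and -0.02 in RT112 and SW780 cells. SAP130 was higher in SW780 cells (8.10 to 11.4 FPKM, ratio 0.50), with -0.05 and -0.26 in RT4 and RT112 cells. SAP18 was among the highest subunits, between 38.3 and 48.1 FPKM, and was below -0.3 in RT112 cells alone (-0.33), and in RT4 cells alone after the GC correction (-0.37). GENCODE 29 has 3 pseudogenes named after SAP18 and 1 after SUDS3.

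Promoters are shown for CHD3, which was lower in all 3 lines, and for SAP30, ING2 and HDAC8, the members that were higher in RT4 and SW780 cells and not in RT112 cells. The sequences are from RefSeq on GRCh38.p14, run 5′ to 3′ on the gene's strand from 250 bases before to 50 bases after the annotated start, and carry the GC box GGGCGG or its reverse complement CCGCCC in capitals. They are chr17:7888539-7888838 on the plus strand for CHD3, chr4:173370704-173371003 on the plus strand for SAP30, chr4:183505848-183506147 on the plus strand for ING2 and chrX:72572794-72573093 on the minus strand for HDAC8.
CHD3: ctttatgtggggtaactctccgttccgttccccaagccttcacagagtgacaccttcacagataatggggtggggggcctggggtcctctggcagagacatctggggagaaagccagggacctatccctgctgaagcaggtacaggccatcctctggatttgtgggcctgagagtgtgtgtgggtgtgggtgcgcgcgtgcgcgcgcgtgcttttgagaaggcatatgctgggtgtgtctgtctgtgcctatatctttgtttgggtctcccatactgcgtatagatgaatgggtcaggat
SAP30: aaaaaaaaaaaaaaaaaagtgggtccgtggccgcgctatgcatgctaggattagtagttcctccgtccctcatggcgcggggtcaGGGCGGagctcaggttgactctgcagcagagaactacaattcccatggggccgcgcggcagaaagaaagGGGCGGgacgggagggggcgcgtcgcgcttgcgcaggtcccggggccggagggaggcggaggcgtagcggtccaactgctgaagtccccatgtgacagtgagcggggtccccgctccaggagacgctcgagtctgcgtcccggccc
ING2: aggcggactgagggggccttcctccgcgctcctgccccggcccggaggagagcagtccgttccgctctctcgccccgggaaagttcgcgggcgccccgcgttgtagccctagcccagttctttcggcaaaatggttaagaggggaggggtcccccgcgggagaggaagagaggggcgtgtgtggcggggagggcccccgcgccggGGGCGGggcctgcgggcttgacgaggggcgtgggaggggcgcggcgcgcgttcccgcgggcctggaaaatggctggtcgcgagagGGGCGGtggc
HDAC8: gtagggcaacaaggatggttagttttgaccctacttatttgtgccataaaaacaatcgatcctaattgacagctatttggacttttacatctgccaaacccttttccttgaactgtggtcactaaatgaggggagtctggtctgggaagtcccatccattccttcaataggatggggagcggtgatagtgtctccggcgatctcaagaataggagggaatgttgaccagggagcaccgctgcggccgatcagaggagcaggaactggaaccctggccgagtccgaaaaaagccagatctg
SAP30 and ING2, which lie apart on chromosome 4 (from 173369969 to 173377532 and from 183504994 to 183511096 in GENCODE 29), each hold 2 GC boxes and 28 and 36 CpG dinucleotides. The windows of CHD3 and HDAC8 hold no GC box and 10 and 9 CpG dinucleotides. Among all 35116 promoter windows of this kind 45.0% hold a GC box, and the median count of CpG dinucleotides is 14. For the members, 30 had an entry, and 30 of their 39 windows (76.9%) hold a GC box, with a median of 31 CpG dinucleotides. In GENCODE 29 CHD3, SAP30, ING2 and HDAC8 each start upstream of the RefSeq window shown. CHD3 starts at 7884806, SAP30 at 173369969, ING2 at 183504994 and HDAC8, on the minus strand, at 72573199. Which start these cells use was not measured. A match or its absence says only which letters are in the window.

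CoREST pairs HDAC1 and HDAC2 with the demethylase KDM1A. KDM1A (LSD1), which removes methyl groups from lysine 4 of histone H3, had the highest mean of the members over the DMSO libraries, with 30.8, 99.9 and 99.0 FPKM in DMSO and 32.4, 61.6 and 88.3 FPKM in quisinostat. RT4 cells had the least in DMSO, 3.24 times below the highest line, and only RT112 cells were past the limit (-0.70, and -0.73 after the GC correction). RCOR1, the scaffold of the complex, had 9.42, 10.2 and 11.2 FPKM in DMSO and 9.49, 8.40 and 11.3 FPKM in quisinostat.

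Of the NCOR subunits, TBL1XR1, an exchange factor of the complex, had 7.08, 21.7 and 9.36 FPKM in DMSO and 6.55, 13.4 and 6.85 FPKM in quisinostat. The ratios were -0.11, -0.69 and -0.45, and -0.79, -0.51 and -0.68 after the GC correction. Its relative TBL1X was low, at 3.02, 1.64 and 0.46 FPKM in DMSO and 2.13, 1.21 and 0.37 FPKM in quisinostat. All 3 ratios of TBL1X were negative, with -0.50, -0.44 and -0.30, the last just inside the limit. After the GC correction they were -0.70, -0.39 and -0.38. With 1 FPKM added to each value they were -0.36, -0.26 and -0.09, so the calls in RT112 and SW780 cells depend on low values. GPS2, whose locus also carries AC026954.2, had 6.60, 2.71 and 5.42 FPKM in DMSO and 6.17, 3.38 and 5.61 FPKM in quisinostat, and its RT112 ratio of 0.32 became -0.22 after the GC correction. GENCODE has 2 pseudogenes named after GPS2. With the GC correction the members lower in all 3 lines were CHD3, TBL1X and TBL1XR1, 3 of 32 beside 7.73% of 8407 loci, and RBBP4 left this group.

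In DMSO the lines differed most in TBL1X, 6.58 times from lowest to highest, followed by HDAC11 (4.94), SIN3B (3.49), KDM1A (3.24) and TBL1XR1 (3.06). The lowest values of TBL1X (SW780 cells) and HDAC11 (RT112 cells) were both 0.46 FPKM, and their counting error is unknown. The smallest differences after CHD4 were those of HDAC3 (1.155), MTA2 (1.19), RCOR1 (1.19) and HDAC1 (1.23). HDAC1 stood above 94.1% to 95.5% of all loci and HDAC3 above 91.0% to 92.7%, while HDAC8 stood above 10.2% to 18.9%. With 1 DMSO library a line, whether neighbours in this order differ could not be tested.

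Paralogs that take the same place in a complex were compared within each library, where the scaling of the library cancels. Of 13 pairs listed, 8 had both genes measured. The balance of CHD3 to CHD4 was 0.52 in DMSO and 0.19 in quisinostat in RT4 cells, 0.26 and 0.14 in RT112 cells, and 0.40 and 0.22 in SW780 cells. On the log2 scale the changes were -1.43, -0.87 and -0.88, and -1.26, -1.0003 and -0.83 after the GC correction, and NOP2 shares the locus of CHD4. CHD3/CHD4 was the only pair to move by more than 0.3 the same way in all 3 lines, and remained so with the GC correction and with added pseudocounts. With 3 lines an exact sign-flip test cannot go below 0.25, so no p-value is given for it.

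**Figure D3:**
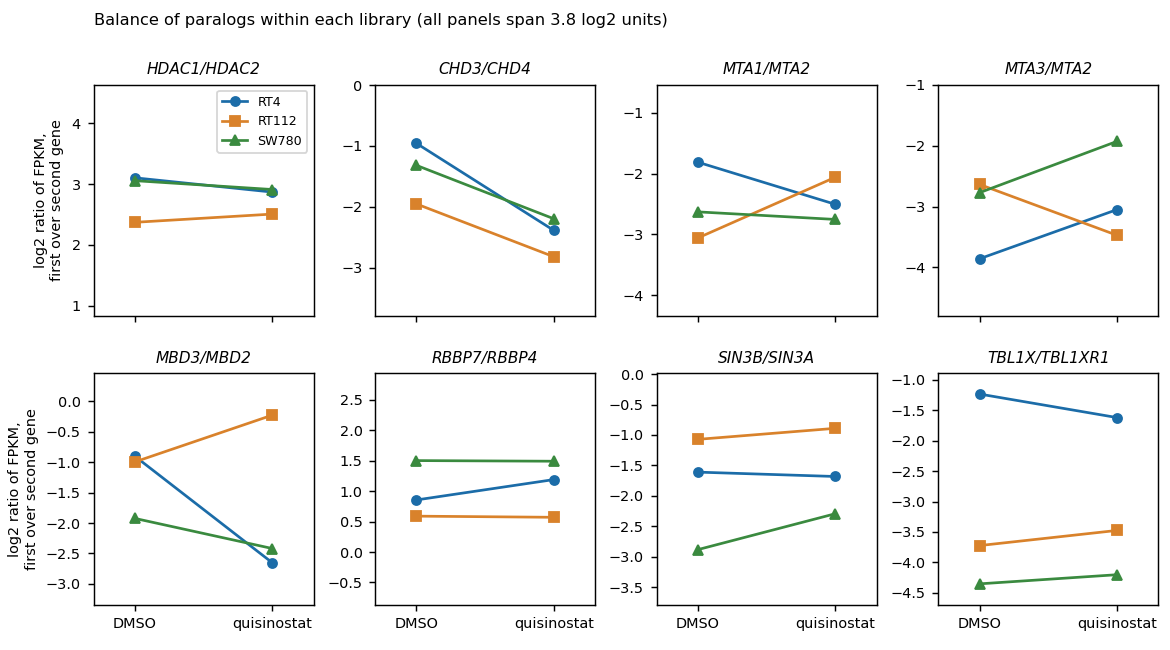
Log2 ratio of FPKM of the first over the second gene of a pair (y axis) in DMSO and quisinostat libraries of each line, 1 library a point; every panel spans the same range. CHD3/CHD4 is lower with quisinostat in all 3 lines, whereas MBD3/MBD2 changes by -1.75 in RT4 and by 0.77 in RT112 cells.

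HDAC1 exceeded HDAC2 5.18 to 8.603 times in FPKM in DMSO and 5.69 to 7.53 times in quisinostat, with changes of -0.24, 0.14 and -0.15 on the log2 scale. RBBP7 to RBBP4 was likewise almost level in RT112 and SW780 cells (-0.02 and -0.01) and moved by 0.34 in RT4 cells. MBD3 to MBD2 changed by -1.75, 0.77 and -0.50, or -0.92, 0.26 and -0.25 after the GC correction. MTA1 to MTA2 changed by -0.69, 1.00 and -0.12, and MTA3 to MTA2 by 0.81, -0.84 and 0.84 (0.16, -0.37 and 0.64 after the GC correction). For SIN3B to SIN3A the changes were -0.07, 0.18 and 0.59, or 0.52, -0.26 and 0.78 after the GC correction. For TBL1X to TBL1XR1 they were -0.39, 0.25 and 0.15, or 0.090, 0.12 and 0.298. The corrected changes of HDAC1 to HDAC2 were 0.20, -0.03 and -0.03. Those of RBBP7 to RBBP4 were 0.46, -0.07 and 0.02, and those of MTA1 to MTA2 -0.48, 0.84 and -0.05.

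The ratios of the members moved with the GC content of their transcripts, with a sign in RT112 cells opposite to that of the other lines. Spearman's correlation of the ratios with GC content across the 32 members came to -0.51 (RT4), 0.66 (RT112) and -0.41 (SW780), beside -0.49, 0.44 and -0.22 across 8407 loci. These are correlations across genes, which share libraries and are not replicates. At a split of 59%, chosen after the values were seen, the 9 members with the most GC-rich transcripts were HDAC7, HDAC11, SIRT2, SIRT6, SIRT7, MTA1, MBD3, SIN3B and GPS2. All 9 had a ratio above 0 in RT112 cells, whereas 2 did in RT4 and 3 in SW780 cells. Of the other 23 members, 3 were above 0 in RT112 cells. Loci were taken by the mean GC content of their genes, by which MTA2 (59.7%) would be above the split and MBD3 (58.1%) below it. Among 1287 loci above it 89.8% were above 0 in RT112, 16.3% in RT4 and 32.9% in SW780 cells. The GC-rich members thus moved with the loci of like composition. Among 7120 loci below the split 47.2% were above 0 in RT112, 60.0% in RT4 and 55.7% in SW780 cells. Of the 23 members below it these were 3, 13 and 9, so in RT112 cells they were above 0 less often than such loci. After subtraction of the trend with GC content in each line, 11 members were lower and 10 higher in RT4 cells (33.4% and 35.6% of loci), 9 and 1 in RT112 cells (24.7% and 28.1%), and 12 and 5 in SW780 cells (28.6% and 30.5%). HDAC11 was the 1 member still higher in RT112 cells, and 4 members (HDAC3, HDAC11, SIN3B and SAP130) had opposite directions in different lines (18.1% of loci).

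**Figure D4:**
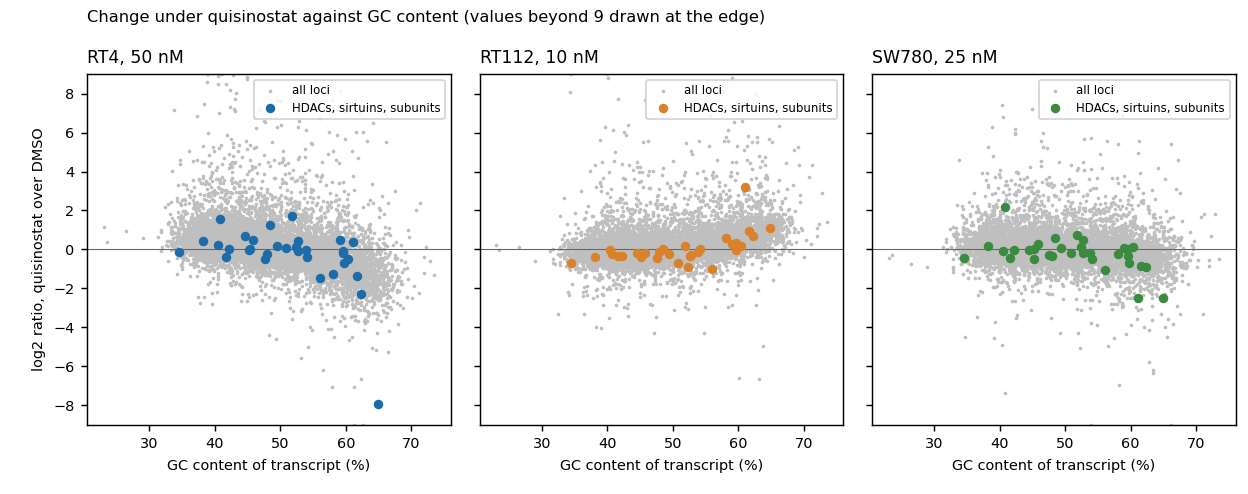
Log2 ratio of FPKM (y axis) against GC content of the transcript in percent (x axis) for each cell line; grey points are 8407 loci and coloured points the 32 members. Members are drawn at the mean GC content of the genes at their locus. Those above 59% lie above 0 in RT112 cells, except MTA2 at -0.05. In RT4 and SW780 cells they lie mostly below 0, along with the grey points.

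The ratios of RT4 and SW780 cells ran together over the members, with a Spearman correlation of 0.72 (0.55 over all loci), and 0.67 after the GC correction (0.55). Those of RT112 cells did not follow either, with -0.15 against RT4 and -0.17 against SW780 cells (0.04 and 0.20 over all loci), and 0.06 and 0.00073 after the GC correction, when all loci gave 0.33 and 0.35.

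With the 3 cell lines as replicates, limma on log2(FPKM + 1) with cell line as a block gave no member with an adjusted p-value under 0.05, and 0% of 9430 loci. At an unadjusted p under 0.05 CHD3 was the only member, on the lower side, where 4.16% of loci were. On the higher side there was no member and 9.68% of loci. CHD3 had a log2 change of -1.08 (standard error 0.21, 95% interval -1.60 to -0.56, adjusted p = 0.245 by limma with Benjamini-Hochberg adjustment), and it was lower in 3 of 3 lines. Adjusted p-values of CHD3 in the other limma fits ran from 0.098 to 0.973. On this scale the intervals were -0.45 to 0.43 for HDAC1, -0.51 to 0.64 for HDAC2, -0.54 to 0.50 for HDAC3 and -0.25 to 1.68 for HDAC8. These intervals are for the mean over 3 lines, which received different doses. A mean change of as much as 0.4 in HDAC1 is thus within what these data allow. SAP30 had a log2 change of 0.77 (standard error 0.32, adjusted p = 0.363 by limma, 0.174 to 0.973 in the other fits) and ING2 one of 0.52 (standard error 0.28, adjusted p = 0.440 by limma, 0.223 to 0.973 in the other fits).

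Subunits and relatives outside the member list were read by the same rule. Of 39 symbols, 24 had a row. In RT4 cells 12 were lower and 4 higher, in RT112 cells 5 and 8, and in SW780 cells 5 and 8, beside 33.5% and 40.3%, 25.2% and 36%, and 28.2% and 32.8% of loci. CDK2AP1, a NuRD subunit whose locus carries another name, and OGT, the O-GlcNAc transferase that binds SIN3, were lower in all 3 lines, with ratios of -0.56, -0.71 and -0.67 and of -0.37, -0.58 and -0.76. SAP30L, the paralog of SAP30, was higher in all 3, from 1.58 to 4.42 FPKM in RT4, from 1.33 to 6.28 in RT112 and from 1.77 to 4.21 in SW780 cells, which are ratios of 1.48, 2.24 and 1.25. L3MBTL3, a reader of methylated lysine, was also higher in all 3 (2.46, 0.39 and 0.87). Among all loci 4.99% were lower and 11.4% higher in all 3 lines. Of 5 genes known to respond to HDAC inhibitors (CDKN1A, H1F0, GSN, CLU and TUBB3), GSN alone was higher in all 3 lines by the plain ratio (0.93 and 2.79 in RT4 and RT112 cells, and from 0.13 to 0.37 FPKM in SW780 cells), and CDKN1A had ratios of 0.12, 1.36 and 0.52. After the GC correction CDKN1A was higher in all 3 as well (0.68, 0.94 and 0.66). The share of loci higher in all 3 lines was 11.4% on either scale. By the plain ratio TUBB3 was lower in RT4 and SW780 cells and CLU lower in SW780 cells. In RT4, RT112 and SW780 cells the ratios were -1.90, 0.54 and -0.61 for TUBB3 and 0.09, 2.62 and -0.32 for CLU. Those of H1F0 were 1.08, 0.45 and -0.04.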

How the data were processed

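RNA-seq of 6 libraries, 1 for each of 3 cell lines and 2 treatments, was analysed from the table of FPKM values. The authors made stranded libraries from polyadenylated RNA and sequenced them on a NovaSeq, and the HISAT2, StringTie and Ballgown pipeline gave the deposited FPKM. The submitters' processing notes name Trimmomatic 0.36, HISAT2 2.2.1, SAMtools 1.15.1, StringTie 2.2.1 and GRCh38. The annotation release and the choice of rows are not given in the sources used here. FPKM divides by transcript length and mapped fragments and has no stated GC correction. Depth is unknown, so no counting interval was computed.

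One value per assembled locus was used. Plain log2 ratios covered loci above 0 in all 6 libraries. The GC correction subtracted a lowess curve (span 0.3) of ratio on the GC content of the longest coding transcript in GENCODE 29, averaged over the genes of a shared locus. limma 3.58.1 (R 4.3.3) used log2(FPKM + 1) values of loci whose mean FPKM was 1 or more, with a mean-variance trend and cell line as a block, since both libraries of a pair come from 1 line. A change on this scale understates that of low genes. Both steps were tested on simulated data. For the quisinostat library of SW780, 1 label spells the line differently, and its title was followed. Members and lists were chosen with earlier results of these data known. Named in full were HDAC1 to HDAC3, members past 0.3 alike in all lines or opposite in 2, the 3 highest and 3 lowest in DMSO, and paralog pairs; the values of further members were added after they were seen. The alternatives were pseudocounts, filters, scalings, the GC correction, wider limits, single-name loci and leaving out a line. Python 3.11.15 was used.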

Additional observations from a re-analysis of the deposited data

Results flagged for a closer look

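Of the 32 genes, 7 had log2 ratios past 0.3 in opposite directions in different cell lines. With 1 library per line and treatment none of these differences was tested, and dose changes with line. The gap between the highest and the lowest of the 3 ratios was 0.81 for HDAC2, 0.76 for HDAC3, 2.98 for HDAC7, 5.71 for HDAC11, 9.04 for SIRT6, 2.32 for MTA1 and 1.83 for MBD3. For SIRT6 it rests on a value of 0.0077 FPKM in the RT4 quisinostat library. After the GC correction the gaps were 0.25, 0.97, 1.21, 4.80, 6.80, 0.80 and 0.85 in the same order, and HDAC3 and HDAC11 alone of the 7 were still past 0.3 in opposite directions.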

How the results depend on the processing

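The counts of members past the limit held within 1.5 times under both pseudocounts, the mean FPKM filter, both scalings and single-name loci, and under the GC correction except that the members higher in RT112 cells went from 6 to 1. At a threshold of 0.5 there were 6 lower and 5 higher in RT4, 4 lower in RT112, 6 lower in SW780 and 1 lower in all 3 lines. At a threshold of 1 there were 5 lower and 3 higher in RT4, 0 and 2 in RT112, 3 and 1 in SW780, and 0 lower in all 3 lines, where 0.285% of loci were. Without 1 cell line, 3 to 7 members were lower in both remaining lines (4 without RT4, 7 without RT112) and 0 to 3 higher (3 without RT112, 1 without SW780). Shares of all loci were not computed at 0.5 or without a line, so those counts cannot be set against all loci. Of 96 single ratios, 5 that were past 0.3 changed sign under the GC correction. In RT4 they became -0.11 for HDAC2, 0.056 for MTA2 and 0.34 for SIN3B, and in RT112 -0.043 for HDAC7 and -0.22 for GPS2. A further 21 came inside the 0.3 limit or went past it, and 70 kept their call. Of 24 paralog balances, that of TBL1X/TBL1XR1 in RT4 turned to 0.090, 4 others crossed the limit and 19 kept their call. The cause was not tested. In limma no member passed the adjusted threshold in any fit, and without the cell line block there was 1 at an unadjusted p under 0.05, as with the pairing by line. There were 5 such members with the GC correction and the block (CHD3, RBBP4, RBBP7, SAP30 and TBL1XR1), where 22.8% of loci passed, and leaving out a line gave 1 to 8 (8 without RT112, where 21.9% of loci passed, against 13.8% with all lines). Unknown depth limits the low genes HDAC8, HDAC11 and SIRT6 most, and TBL1X in SW780 cells.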

Other observations

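Factors that bring SIN3 or NCOR to DNA were read from a list of 15, of which 11 had a row. MXI1, a MAD-type repressor that recruits SIN3, was higher in all 3 lines, from 0.45 to 4.37 FPKM in RT4, from 3.63 to 5.27 in RT112 and from 0.72 to 2.90 in SW780 cells. BCL6, a repressor that recruits NCOR, was lower in all 3, with log2 ratios of -0.75, -0.81 and -1.23 in RT4, RT112 and SW780 cells. Among all loci 11.4% were higher and 4.99% lower in all 3 lines. Over the list, 5 were lower and 4 higher in RT4, 2 and 4 in RT112 and 3 and 5 in SW780 cells, beside 33.5% and 40.3%, 25.2% and 36%, and 28.2% and 32.8% of loci. RXRA and MXD4, both with GC-rich transcripts, were lower in RT4 (-2.05 and -1.65) and higher in RT112 cells (1.03 and 2.58), and after the GC correction the values were -0.94 and -0.47 in RT4 and 0.20 and 1.69 in RT112 cells.

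Of 10 partners of class IIa deacetylases, 6 had a row, all of them proteins of the 14-3-3 family, which hold these enzymes in the cytoplasm. YWHAE alone was lower in all 3 lines, where 4.99% of loci were. It went from 209 to 123 FPKM in RT4, from 157 to 108 in RT112 and from 315 to 230 in SW780 cells. YWHAZ was higher in RT4 (0.54) and SW780 cells (0.39) and had a ratio of -0.01 in RT112 cells, and after the GC correction none of its ratios passed 0.3 (0.10, 0.16 and 0.26 in RT4, RT112 and SW780 cells).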
